A study of Mus musculus with 9 samples.

Results

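The 40 genes described here encode the machinery with which the endoplasmic reticulum (ER) imports, folds, oxidises and disposes of secretory proteins, together with the sensors of the unfolded protein response. They were taken by gene name from the pathway; no measured value is part of that rule, although the pathway was picked with earlier results of these data known. Each name matched 1 of the 56748 genes in the deposited count table, and all 40 passed the filter on low counts, which left 17276 genes to test. Their lowest count in any library was 41 reads (Derl3); apart from Derl3 and Prdx4 it was 731 reads (Eif2ak3).

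RNA sequencing had been run on total RNA of primary pancreatic islets from C57bl/6 mice of wt genotype, with 3 libraries in each of 3 groups. Particle islets received an inflammatory mixture (IL-1beta, TNF-alpha and IL-6) along with polydopamine-coated mesoporous silica nanoparticles, inflamed islets received the mixture alone, given as 48 h of exposure, and control islets were left untreated. The study asked whether the particles protect islets from the cytokines, and particles without cytokines were not analysed here. The labels name neither the age of the mice nor whether replicates came from separate animals or islet preparations, so p-values cover only the variation among these libraries, part of which may be technical. Counts from overlapping genes cannot be told apart here, since the labels do not say whether reads were assigned by strand. Among the 40 this concerns Derl2 (with Mis12), Hsp90b1 (with 1810014B01Rik), Manf (with Dcaf1 and Rbm15b), Pdia3 (with Catsper2) and Syvn1 (with Mrpl49).

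The ER is where insulin precursors and other secreted proteins acquire their disulfide bonds and shape. When unfolded protein accumulates there, the chaperone BiP leaves the sensors IRE1, PERK and ATF6, which raise chaperone and degradation genes through XBP1 and ATF6 and slow translation through PERK. Beta cells carry a heavy folding load because of insulin, and inherited loss of PERK or wolframin causes diabetes in people.

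One promoter element ties many of these genes to the sensors. The ER stress response element (ERSE) is CCAAT, then 9 bases of any kind, then CCACG, the first part being a box for the factor NF-Y and the second a site for ATF6 or XBP1. RefSeq promoters (build GRCm38.p6, 250 bases before to 50 after the start of a gene) were on hand for 34 of the 40 genes, and for Hyou1, Atf6, Manf, Sec61a1, Derl1 and Atp2a2 none was. Read on both strands, ERSE was found in 39 of 32851 promoters (0.119%) and in 10 of these 34 genes (29.4%), namely Calr, Canx, Creld2, Derl3, Dnajc3, Ero1b, Hsp90b1, Hspa5, Pdia6 and Syvn1. The units differ, here and for the elements below. Promoters are counted over the whole set, which covers 27025 gene symbols, and genes with the element in any promoter among the 34. The first 3 windows below belong to ERSE genes that did not pass the test between inflamed and control islets, and the next 5 to genes that fell. Each is printed in the direction of the gene, with the fixed letters of the element in capitals; in Calr, Creld2, Ero1b and Hsp90b1 they read as the reverse complement, CGTGG before ATTGG. The window of Hspa5 is chr2:34772005-34772063 (forward strand), and the ERSE inside it ends 46 bases before the start site. The window of Canx is chr11:50325780-50325838 (reverse strand), that of Calr chr8:84847055-84847113 (reverse) and that of Pdia6 chr12:17266471-17266529 (forward). The window of Ero1b is chr13:12565662-12565720 (forward), that of Creld2 chr15:88819500-88819558 (forward), that of Dnajc3 chr14:118937807-118937865 (forward) and the nearer of the pair in Hsp90b1 chr10:86705513-86705571 (reverse).
Hspa5: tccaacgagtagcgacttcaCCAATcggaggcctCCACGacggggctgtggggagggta
Canx: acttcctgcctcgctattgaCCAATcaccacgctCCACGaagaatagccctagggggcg
Calr: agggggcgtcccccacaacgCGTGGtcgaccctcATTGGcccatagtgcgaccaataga
Pdia6: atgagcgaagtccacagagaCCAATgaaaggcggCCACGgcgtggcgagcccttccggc
Ero1b: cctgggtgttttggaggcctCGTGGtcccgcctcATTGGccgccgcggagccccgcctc
Creld2: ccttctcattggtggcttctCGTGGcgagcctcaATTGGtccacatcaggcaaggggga
Dnajc3: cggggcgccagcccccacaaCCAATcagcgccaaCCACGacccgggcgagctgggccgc
Hsp90b1: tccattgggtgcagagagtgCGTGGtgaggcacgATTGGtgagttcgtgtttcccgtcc

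In addition, 4 shorter elements were sought in the same promoters. ERSE-II, which is ATTGG, 1 base of any kind and CCACG, was found in 12 promoters (0.0365%), among them those of Herpud1 and Dnajb11. Herpud1 encodes a membrane protein of the degradation complex, and its element ends 41 bases before the start site, in chr8:94386357-94386407 (forward strand).
Herpud1: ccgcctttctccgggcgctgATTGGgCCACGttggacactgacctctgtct
The unfolded protein response element TGACGTGG, whose last 5 letters are the reverse complement of CCACG, was found in 0.676% of promoters and in none of the 34. Its variant TGACGTGA was found in 0.441% of promoters and in that of Hspa5, and the ATF4 element TGATGCAA in 0.895% and in that of Herpud1. These matches describe letters in a window and not bound sites.

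Total counts ranged from 17832949 to 55865759 per library. Ins1 and Ins2, the insulin genes, took 8.55, 21.6 and 16.1% of all counts in particle islets, 18.8, 13.0 and 21.2% in inflamed islets and 28.8, 29.2 and 28.5% in control islets. The other 9 beta cell markers summed to 12519, 20476 and 7964 CPM (counts scaled to a common library size, with TMM factors) in particle islets, to 7598 to 8582 CPM in inflamed islets and to 30990.0 to 32291 CPM in control islets, most of it from Iapp, the amylin gene. Of 11 beta cell markers 10 fell in inflamed against control islets and none rose, where 19.0% of all tested genes fell and 20.7% rose. Of 10 tested macrophage markers 9 rose, with sums of 333 to 494 CPM in particle, 996 to 1089 CPM in inflamed and 310 to 381 CPM in control islets. Alpha cell markers (5 of 7 fell) summed to 480, 7979 and 133 CPM in particle islets, 139 to 515 CPM in inflamed islets and 7495 to 27546 CPM in control islets. Endothelial markers (5 of 8 fell) summed to 6.45 to 29.5 CPM in particle, 4.93 to 9.06 CPM in inflamed and 28.9 to 74.2 CPM in control islets. No marker of these 4 lists was at 0 in all libraries. In other lists, 2 of 3 tested delta cell markers and 2 of 7 stellate cell markers fell, with 0 higher. Of tested B lymphocyte and plasma cell markers 2 of 4 fell, and of Schwann cell markers 1 of 4, again with 0 higher. Of 6 tested duct cell markers 2 rose and 1 fell, and the 1 tested T lymphocyte marker rose. The part of these markers in the results below was not tested, and in bulk RNA fewer cells of a type and less RNA per cell cannot be told apart.

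As a whole, the 40 genes took a smaller share of each cytokine-exposed library. Outside insulin, they made up 1.28, 1.39 and 1.13% of counts in particle islets, 1.09, 1.16 and 1.02% in inflamed islets and 1.66, 2.21 and 1.93% in control islets. Neither cytokine-exposed group overlapped the control group in this share, and particle replicate 3 lay inside the inflamed range. Of the 40 genes, 20 fell and 4 rose in inflamed against control islets, where 19.0% of all tested genes fell and 20.7% rose (edgeR's quasi-likelihood test, Benjamini-Hochberg adjusted p under 0.05). Their median log2 fold change was -0.68, against 0.05 over all genes tested. The groups did not overlap for 25 members lower and 5 higher in inflamed islets, where 28.5% and 28.3% of all genes were so separated. The 4 that rose were Atf6, Eif2ak3, Ero1a and Edem1.

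**Figure D1:**
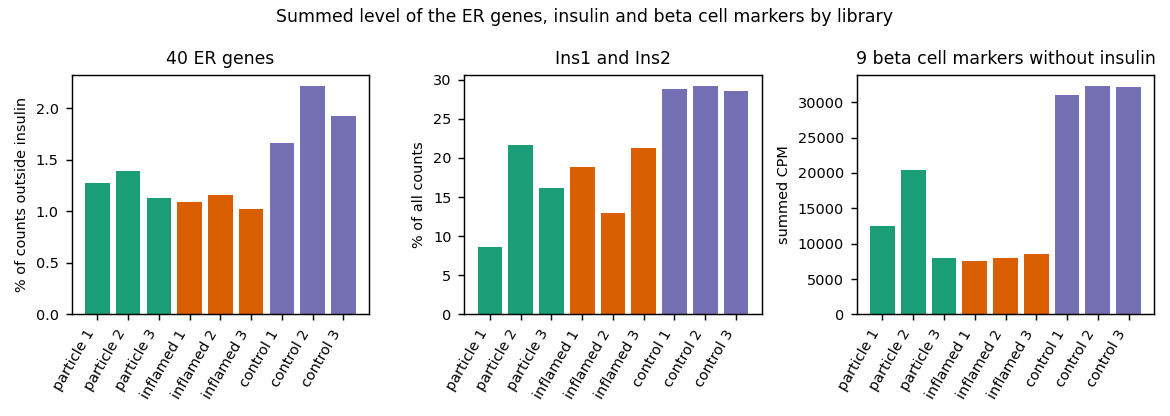
Share of the 40 ER genes in counts outside insulin (left, %), share of Ins1 and Ins2 in all counts (middle, %) and summed level of 9 other beta cell markers (right, CPM), with 1 bar for each of the 9 libraries. Control bars are the tallest in all 3 panels, and particle replicate 2 has the tallest particle bar in each.

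**Figure D2:**
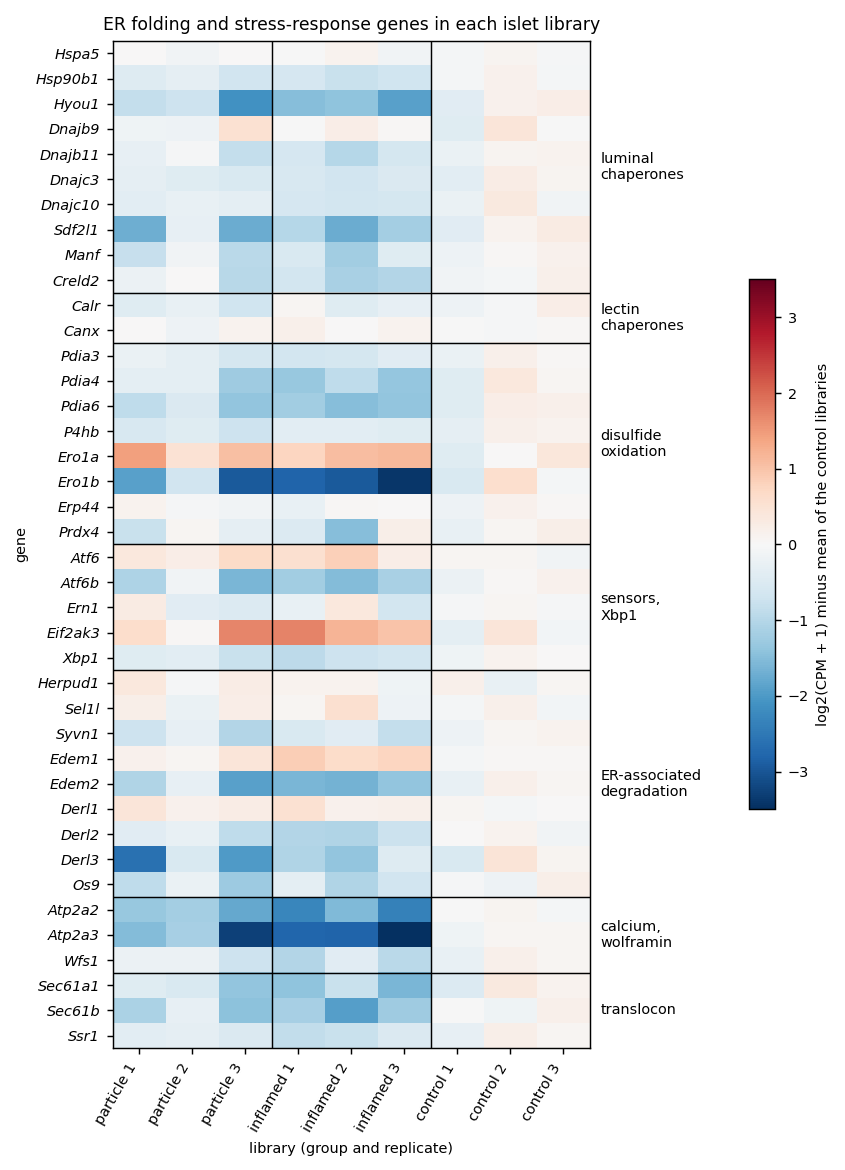
Each cell gives log2(CPM + 1) of 1 gene in 1 library minus the mean of the control libraries, with genes in rows by role and libraries in columns by group. Blue fills most of the inflamed columns, most deeply for Ero1b, Atp2a3 and Atp2a2, while Hspa5, Canx, Erp44 and Herpud1 stay pale.

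Luminal chaperones and their helpers divided, with 7 of 10 lower in inflamed than in control islets, 0 higher and 3 that did not pass. Of all tested genes, 19.0% were lower and 20.7% higher. Hspa5, at chr2:34661982-34667559 in the GRCm39 coordinates of the files, encodes BiP, the chaperone that all branches of the response induce. It had 1249.7, 1135 and 1254 CPM in particle islets, 1219.8, 1346 and 1135 CPM in inflamed islets and 1183, 1329.6 and 1192 CPM in control islets. All groups overlapped. Its log2 fold change was -0.00 in inflamed against control (SE 0.21, adjusted p = 0.996), -0.02 in particle against inflamed (adjusted p = 0.974) and -0.03 in particle against control (adjusted p = 0.944, edgeR). With library totals in place of TMM factors the inflamed value was 0.18, where the median of all genes was 0.22.

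Hyou1, a large BiP relative that recharges BiP with nucleotide, fell 3.06-fold in inflamed islets. It had 559, 608 and 232 CPM in particle islets, 359, 379 and 267 CPM in inflamed islets and 770.3, 1121 and 1178 CPM in control islets. Every control library was above every cytokine-exposed library. Inflamed against control, the log2 fold change was -1.61 (SE 0.35, adjusted p = 0.00476).

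Creld2 and Hsp90b1 fell less. Creld2, an ER stress-induced protein with isomerase activity, had 85.4, 98.9 and 50.1 CPM in particle islets, 62.5, 44.7 and 47.7 CPM in inflamed islets and 91.3, 94.7 and 111 CPM in control islets. The inflamed libraries were all below the control libraries, while the particle libraries spanned both groups; the log2 fold change was -0.94 in inflamed against control (SE 0.25, adjusted p = 0.0134). Hsp90b1, the chaperone GRP94, had 309, 340.5 and 267 CPM in particle islets, 281, 247 and 262 CPM in inflamed islets and 404, 472 and 407 CPM in control islets. Its control libraries stood above all others. The change was -0.70 on the log2 scale (SE 0.19, adjusted p = 0.0143), and its call was lost when library totals replaced TMM factors (adjusted p = 0.051). The remaining 4 that fell were Sdf2l1 (-1.31), Dnajb11 (-0.74), Dnajc10 (-0.65) and Dnajc3 (-0.60), co-chaperones of BiP, as log2 fold changes. Their calls were lost without single libraries, namely inflamed replicate 2 (Sdf2l1, Dnajb11, Dnajc3), control replicate 2 (Dnajb11, Dnajc10, Dnajc3), control replicate 3 (Sdf2l1, Dnajb11, Dnajc3) or inflamed replicate 1 (Dnajc3), and those of Dnajb11, Dnajc10 and Dnajc3 also with library totals. Manf, a secreted stress-induced factor, was at -0.69 (adjusted p = 0.0644) and Dnajb9, the BiP co-chaperone that represses IRE1, at 0.05 (adjusted p = 0.899).

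Both lectin chaperones, which hold glycoproteins during folding, did not pass the test. Calr, encoding calreticulin, had 709, 792 and 593 CPM in particle islets, 995, 716 and 782 CPM in inflamed islets and 847, 922 and 1119 CPM in control islets. Canx, encoding calnexin, had 313, 274 and 339 CPM in particle islets, 356, 312 and 341 CPM in inflamed islets and 311, 301 and 324 CPM in control islets. In both genes the inflamed and control libraries overlapped. The log2 fold changes in inflamed against control were -0.21 for Calr (SE 0.24, adjusted p = 0.497) and 0.11 for Canx (SE 0.18, adjusted p = 0.666).

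Oxidation of disulfides held the most divergent pair. Ero1a and Ero1b encode the oxidases that pass oxidising equivalents to the disulfide isomerases, Ero1b being the form characteristic of pancreatic islets. Ero1b, at chr13:12580755-12626285 (GRCm39), had 248, 589 and 120.4 CPM in particle islets, 132, 121 and 87.4 CPM in inflamed islets and 641, 1412 and 896 CPM in control islets. All control libraries were above all others, with particle replicate 2 nearest to them. Ero1b fell 8.66-fold in inflamed islets (log2 fold change -3.11, SE 0.53, adjusted p = 0.00131). Ero1a, chosen for this account after its values were seen, had 132, 69.6 and 101 CPM in particle islets, 82.2, 103 and 107 CPM in inflamed islets and 35.9, 49.1 and 64.7 CPM in control islets. Both cytokine-exposed groups lay above the control group. Ero1a rose 1.96-fold in inflamed islets (0.97, SE 0.28, adjusted p = 0.0171), a call lost without inflamed replicate 3, control replicate 1 or control replicate 2. Per base of gene length, the level of Ero1b divided by that of Ero1a was 1.49, 6.73 and 0.944 in particle islets, 1.28, 0.933 and 0.646 in inflamed islets and 14.2, 22.9 and 11.0 in control islets.

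Pdia6 and Pdia4, isomerases that act with BiP, fell as well. Pdia6 had 295, 383 and 210.0 CPM in particle islets, 234, 193 and 209 CPM in inflamed islets and 407, 641 and 619 CPM in control islets. Pdia4 had 126, 126 and 66.0 CPM in particle islets, 63.0, 85.3 and 61.7 CPM in inflamed islets and 119, 204 and 166 CPM in control islets. For both, inflamed and control libraries were apart. The log2 fold changes were -1.39 for Pdia6 (SE 0.27, adjusted p = 0.0025) and -1.22 for Pdia4 (SE 0.29, adjusted p = 0.0071). The general isomerases Pdia3 (-0.56, adjusted p = 0.0627) and P4hb (-0.40, adjusted p = 0.161), the retention factor Erp44 (-0.06, adjusted p = 0.805) and the peroxidase Prdx4 (-0.47, adjusted p = 0.373) did not pass.

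**Figure D3:**
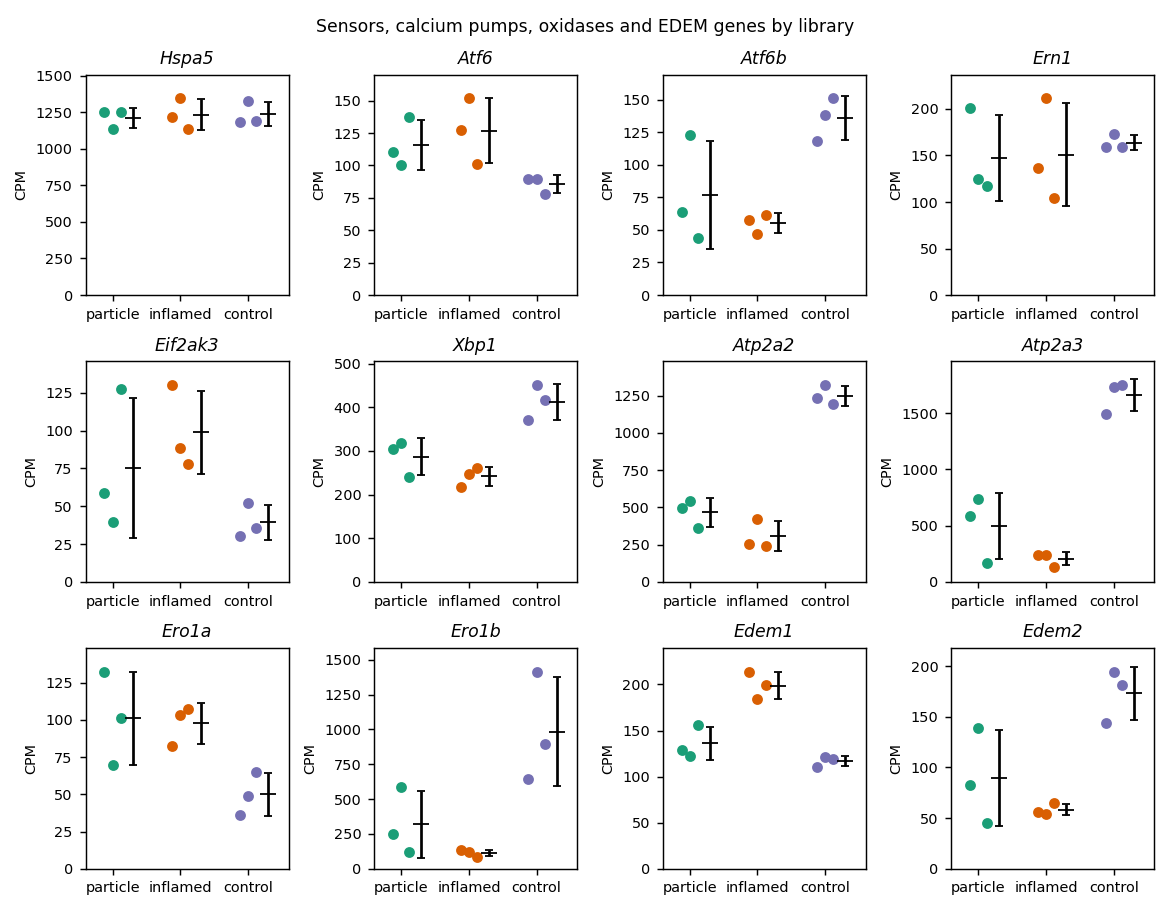
CPM of 12 of the genes in each library (points), with the group mean (short line) and SD (bar, n = 3), for particle, inflamed and control islets from left to right. Hspa5 and Ern1 overlap between all groups, Atp2a2, Atp2a3, Ero1b and Edem2 are highest in control islets, and Eif2ak3 and Edem1 are highest on average in inflamed islets.

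The sensors did not move as a block. Eif2ak3, encoding PERK, at chr6:70821499-70882229 (GRCm39), had 58.8, 39.6 and 127 CPM in particle islets, 130.1, 88.8 and 78.2 CPM in inflamed islets and 30.2, 52.2 and 35.7 CPM in control islets. Inflamed libraries were all above control libraries, and the particle libraries reached from inside the control range to the inflamed range. Eif2ak3 rose 2.52-fold in inflamed islets (log2 fold change 1.33, SE 0.40, adjusted p = 0.0208), a call lost without inflamed replicate 1, control replicate 1 or control replicate 3. Ern1, encoding IRE1, had 201, 124 and 117 CPM in particle islets, 137, 212 and 104 CPM in inflamed islets and 159, 173 and 159.6 CPM in control islets. It overlapped in all groups and did not pass (-0.12, SE 0.28, adjusted p = 0.756).

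Atf6 and Atf6b, which encode paralogous membrane-tethered transcription factors, moved in opposite directions. Atf6 had 110.3, 100.2 and 137 CPM in particle islets, 127, 152 and 101 CPM in inflamed islets and 89.6, 89.9 and 77.7 CPM in control islets. Atf6b had 63.5, 123 and 43.9 CPM in particle islets, 57.8, 46.9 and 61.5 CPM in inflamed islets and 118, 138 and 151 CPM in control islets. Inflamed and control libraries were apart for both genes. Atf6b fell 2.45-fold (-1.30, SE 0.32, adjusted p = 0.00898). Atf6 rose 1.48-fold (0.57, SE 0.20, adjusted p = 0.0467), and this call held in 7 of 20 alternative settings. It was lost without particle replicate 1 or 2, inflamed replicate 1 or 2, or any control replicate. It was also lost with RLE factors, with scaling without the most abundant genes, with no count filter, with a replicate block and on either FPKM scale. Per base of gene length, Atf6b divided by Atf6 gave 1.93, 4.11 and 1.07 in particle islets, 1.52, 1.03 and 2.03 in inflamed islets and 4.42, 5.16 and 6.52 in control islets.

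Xbp1, whose transcript IRE1 splices, had 304, 317 and 239 CPM in particle islets, 218, 246 and 261 CPM in inflamed islets and 369.9, 451 and 416 CPM in control islets. All 3 control libraries exceeded all 6 others. Xbp1 fell 1.71-fold in inflamed islets (-0.77, SE 0.20, adjusted p = 0.011). Gene counts do not separate spliced from unspliced Xbp1, nor do levels of sensor transcripts report the activity of the sensors.

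Degradation genes also split, with 2 of 9 lower (22.2%), 1 higher (11.1%) and 6 not passing, against 19.0% lower and 20.7% higher of all tested genes, so the share lower was near that of all genes. Their median log2 fold change was nevertheless -0.59, against 0.05 over all genes tested. The groups did not overlap for 4 of the 9 lower and 2 higher, against 28.5% and 28.3% of all genes. Edem1 and Edem2 encode mannosidase-like proteins that mark misfolded glycoproteins for disposal. Edem1, at chr6:108805602-108836317 (GRCm39), had 129, 123 and 156 CPM in particle islets, 214, 184 and 199 CPM in inflamed islets and 110.3, 121 and 119 CPM in control islets. Edem2 had 82.9, 139 and 45.5 CPM in particle islets, 56.5, 53.9 and 65.0 CPM in inflamed islets and 144, 194 and 181 CPM in control islets. Edem1 was thus highest in inflamed islets, with all 3 groups apart, and Edem2 lowest there on average. Edem1 rose 1.70-fold (0.77, SE 0.18, adjusted p = 0.00595), and Edem2 fell 2.96-fold (-1.57, SE 0.33, adjusted p = 0.00416). Derl2, a membrane channel subunit of the same route, had 81.1, 89.8 and 57.5 CPM in particle islets, 51.8, 50.5 and 62.6 CPM in inflamed islets and 107, 115 and 98.6 CPM in control islets. Its control libraries stood above all others, and it fell 1.95-fold (-0.96, SE 0.20, adjusted p = 0.00409).

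Of the rest, the ubiquitin ligase Syvn1 was at -0.59 (adjusted p = 0.0523), its partner Sel1l at 0.18 (adjusted p = 0.556), the lectin Os9 at -0.67 (adjusted p = 0.0867), Derl1 at 0.30 (adjusted p = 0.219) and Herpud1 at 0.02 (adjusted p = 0.936), as log2 fold changes in inflamed against control. Derl3, on average the least abundant member in particle and inflamed islets, had 2.02, 11.8 and 3.66 CPM in particle islets, 7.998, 6.14 and 12.6 CPM in inflamed islets and 11.7, 24.3 and 18.8 CPM in control islets (-1.03, adjusted p = 0.16). Within each group its level was highest in the library with the most acinar cell marker RNA, whose 15 genes summed to 35.0, 3679 and 252 CPM in particle islets, 42.9, 44.6 and 2758 CPM in inflamed islets and 96.3, 1713 and 344 CPM in control islets. Of 14 tested acinar markers 1 was lower and 0 higher in inflamed against control, against 19.0% and 20.7% of all tested genes. None of the 15 was at 0 in all libraries. The libraries with the most acinar marker RNA were also highest for Xbp1, Edem2, Derl2 and Ssr1, so this order was not particular to Derl3. The part of acinar cells in these values was not tested.

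Calcium handling held the second largest fall among the 40. Atp2a2 and Atp2a3 encode SERCA2 and SERCA3, the pumps that fill the ER with calcium, on which chaperones depend. Atp2a3, at chr11:72851995-72883870 (GRCm39), had 582, 735 and 170.5 CPM in particle islets, 239.6, 237 and 137 CPM in inflamed islets and 1495, 1736 and 1751 CPM in control islets. Atp2a2, at chr5:122591576-122640288, had 496, 543 and 358 CPM in particle islets, 256, 425 and 240.0 CPM in inflamed islets and 1233, 1321 and 1192 CPM in control islets. For both pumps the control libraries lay far above every cytokine-exposed library. Atp2a3 fell 8.12-fold in inflamed islets (-3.02, SE 0.47, adjusted p = 0.000821) and Atp2a2 fell 4.07-fold (-2.02, SE 0.28, adjusted p = 0.000445). Per base of gene length, Atp2a3 divided by Atp2a2 was 1.35, 1.56 and 0.548 in particle islets, 1.08, 0.643 and 0.656 in inflamed islets and 1.40, 1.51 and 1.69 in control islets. Wfs1, encoding the ER membrane protein wolframin, had 225, 228 and 158 CPM in particle islets, 129, 197 and 134 CPM in inflamed islets and 218, 296 and 275 CPM in control islets. It fell 1.72-fold (-0.78, SE 0.24, adjusted p = 0.0243), with inflamed and control libraries apart, and lost its call with library totals and without inflamed replicate 1 or 3 or control replicate 2 or 3.

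All 3 translocon genes, through whose products nascent chains enter the ER, fell in inflamed islets, where 19.0% of all tested genes fell. Sec61a1, encoding the channel itself, had 232, 214 and 119 CPM in particle islets, 115, 179.9 and 100.4 CPM in inflamed islets and 221, 395 and 337 CPM in control islets. Sec61b, a small subunit of the channel, had 87.3, 155 and 69.6 CPM in particle islets, 83.5, 48.9 and 79.3 CPM in inflamed islets and 189, 169 and 212 CPM in control islets. Ssr1, a subunit of the associated TRAP complex, had 149.7, 157 and 138 CPM in particle islets, 108, 113 and 138 CPM in inflamed islets and 159, 227 and 206 CPM in control islets. Inflamed and control libraries were apart in each gene. The log2 fold changes were -1.27 for Sec61a1 (SE 0.32, adjusted p = 0.0102), -1.43 for Sec61b (SE 0.31, adjusted p = 0.00427) and -0.72 for Ssr1 (SE 0.20, adjusted p = 0.0134), the last lost with library totals or without inflamed replicate 1.

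**Figure D4:**
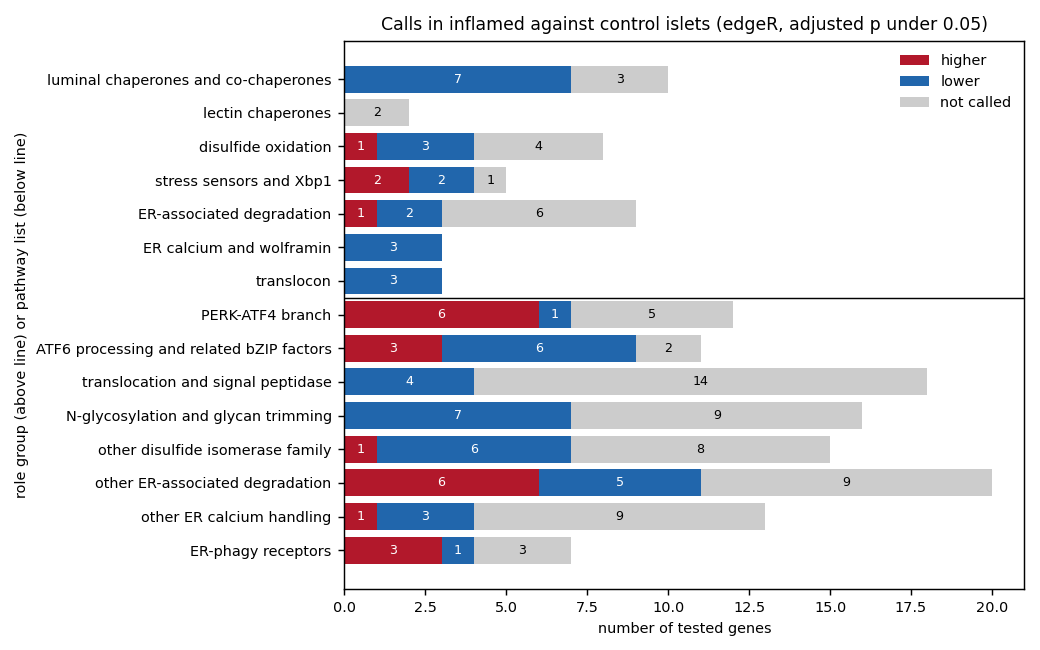
Number of tested genes higher (red), lower (blue) or not called (grey) in inflamed against control islets for the role groups of the 40 genes, above the line, and for 8 other lists of the pathway, below it. The translocon and calcium groups are wholly lower, and the PERK-ATF4 list is the one with the most members higher relative to lower. Of all tested genes, 19.0% were lower and 20.7% higher.

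The order of levels changed with the falls. Per kilobase of gene length, inflamed islets had most Hspa5 (292 ± 25.1 CPM per kb, SD, n = 3) and Calr (289 ± 50.7), which did not differ beyond their spread. P4hb (242 ± 5.87) lay within the spread of Calr. Then came Pdia3 (187 ± 18.0) and Herpud1 (171 ± 17.7), within each other's spread. Control islets had most Calr (334 ± 48.8 CPM per kb), P4hb (320 ± 54.9), Atp2a3 (314 ± 27.2), Hspa5 (292 ± 19.4) and Pdia3 (276 ± 40.1), and these did not differ beyond their spread. In particle islets the highest means were those of Hspa5 (287 ± 16.0 CPM per kb), Calr (242 ± 34.9) and P4hb (214 ± 22.6). The spread of Calr reached those of Hspa5, P4hb, Pdia3 (210 ± 27.3) and Herpud1 (193 ± 27.9). Atp2a3 stood at rank 8 of 40 in particle islets, rank 19 in inflamed islets and rank 3 in control islets, and Ero1b at ranks 21, 31 and 11 in the same order of groups.

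Genes with and without ERSE were also set side by side. Of the 10 genes with ERSE, 5 fell and 0 rose in inflamed islets, with log2 fold changes from -3.11 (Ero1b) to 0.11 (Canx) and a median of -0.65. The 24 genes whose promoter lacked it had 12 lower and 3 higher, with a median of -0.66. Of all tested genes, 19.0% fell and 20.7% rose.

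Among other genes of the pathway, the PERK-ATF4 list had the largest excess of members higher over lower in inflamed against control islets. In this list 6 of 12 genes were higher and 1 lower, with a median log2 fold change of 0.66. Over all tested genes, 20.7% were higher and 19.0% lower, and the median was 0.05. Atf3, a stress-induced repressor, averaged 198 ± 37.8 CPM in particle islets, 156 ± 14.4 CPM in inflamed islets and 5.77 ± 0.453 CPM in control islets (SD, n = 3 each). Ppp1r15a, encoding the phosphatase subunit GADD34 that restores translation, averaged 485 ± 132 CPM in particle islets, 548 ± 83.7 CPM in inflamed islets and 87.8 ± 38.9 CPM in control islets. Inflamed against control, Atf3 rose (4.76, adjusted p = 5.83e-07), Ppp1r15a rose (2.64, adjusted p = 0.000329), and the glutathione-degrading Chac1 was the 1 gene of the list that fell (-1.51, adjusted p = 0.00152).

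Lists that serve import, glycosylation and disulfide exchange were set beside the 19.0% of all genes that fell and the 20.7% that rose. Of 18 tested translocation and signal peptidase genes 4 fell (22.2%, near the share of all genes) and 0 rose, led by Spcs3 (-2.19, adjusted p = 0.000493) and Spcs2 (-1.26, adjusted p = 0.00328), both subunits of signal peptidase. Of 16 N-glycosylation genes 7 fell (43.8%) and 0 rose, led by the oligosaccharyltransferase subunits Ostc (-1.31, adjusted p = 0.00172) and Rpn1 (-1.45, adjusted p = 0.00345). Of 15 other members of the disulfide isomerase family 6 fell, led by Txndc5 (-1.91, adjusted p = 0.000615) and Pdia5 (-1.80, adjusted p = 0.00119), and 1 rose (Tmx2, 0.49, adjusted p = 0.0399). Of 20 other degradation genes 5 fell (25.0%) and 6 rose (30.0%), with Erlin1, a scaffold of ER membrane domains, at 0.91 (adjusted p = 0.00608) and the selenoprotein Selenos at -1.06 (adjusted p = 0.00723).

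The list of ATF6 processing and related factors had 3 higher (27.3%) and 6 lower (54.5%) of 11, against 20.7% and 19.0% of all tested genes. Mbtps1, the Golgi protease that first cuts ATF6, fell (-1.49, adjusted p = 0.00101), and Creb3, a tethered relative of ATF6, rose (2.31, adjusted p = 2.09e-05). Creb3 overlaps Tln1 and Gba2, Spcs2 overlaps Xrra1, Txndc5 overlaps Bmp6 and Tmx2 overlaps Med19, with the same limit on their counts. By edgeR none of the genes in these lists was called in particle against inflamed islets, a comparison in which it called 0 genes in all.

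Between particle and inflamed islets edgeR called 0 of the 40 genes, and 0% of all genes tested in either direction. At an unadjusted p under 0.05, 5 members were higher (Creld2, Ero1b, Derl2, Atp2a2 and Atp2a3) and 1 lower (Edem1) in particle islets, where 9.58% of all genes were higher and 5.49% lower. The groups did not overlap for 2 members higher (Dnajc10 and Ssr1) and 1 lower (Edem1), against 8.87% and 6.82% of all genes. Edem1, with the smallest p, averaged 136 ± 17.8 CPM in particle islets and 199 ± 14.9 CPM in inflamed islets (SD, n = 3 each; log2 fold change -0.55, SE 0.17, adjusted p = 0.196). Ero1b averaged 319 ± 242 CPM in particle islets and 114 ± 23.3 CPM in inflamed islets (1.49, SE 0.50, adjusted p = 0.206), and its log2 fold change was 0.70 without particle replicate 2 and 1.89 without particle replicate 3. Atp2a3 averaged 496 ± 292 CPM in particle islets and 204 ± 58.6 CPM in inflamed islets (1.28, SE 0.44, adjusted p = 0.217). DESeq2 called 2 members, Ero1b higher and Edem1 lower, where it called 2.82% of all genes higher and 1.71% lower, and limma-voom called 0 members. Without particle replicate 3, edgeR called 3 members (Creld2, Ero1b and Atp2a3, all higher), where 3.56% of all genes were higher and 1.71% lower. A p above the threshold does not show that the groups were alike.

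**Figure D5:**
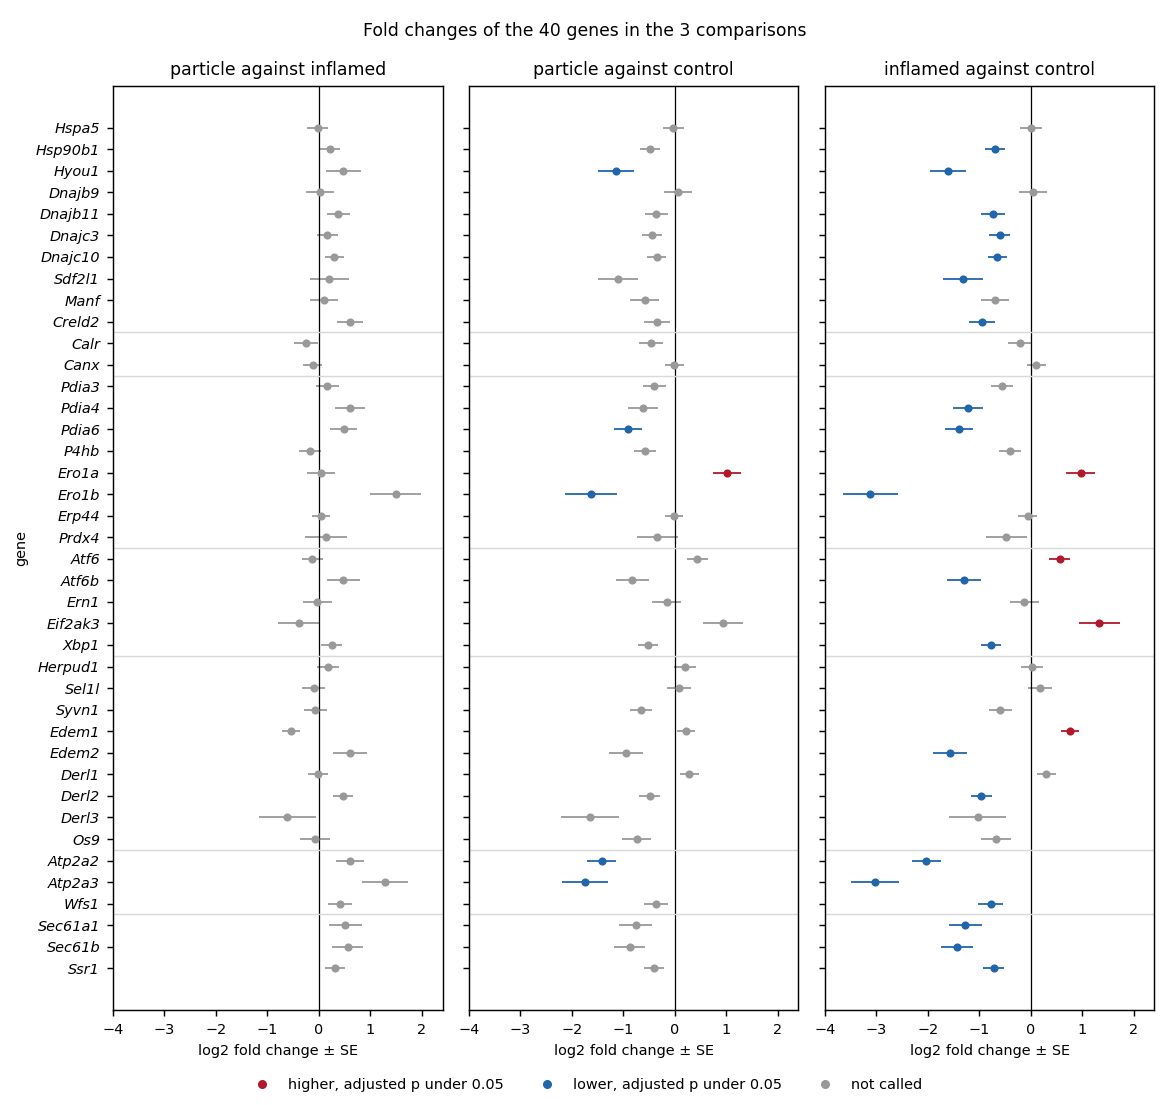
Log2 fold change (point) and SE (bar) of each of the 40 genes in particle against inflamed, particle against control and inflamed against control islets, coloured where the adjusted p is under 0.05. No point is coloured in the left panel, 6 are in the middle panel and 24 in the right panel.

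Among the members called in inflamed against control, the particle libraries kept a recurring order. Of the 20 genes lower in inflamed islets, 18 had their highest particle value in replicate 2 and 19 their lowest in replicate 3. Of the 4 genes higher in inflamed islets, all 4 had their lowest particle value in replicate 2 and 3 had their highest in replicate 3. Among the marker sums, the beta cell markers without insulin had the same order, and Iapp alone made up 11957 of their 12519 CPM in particle replicate 1, 17273 of 20476 CPM in replicate 2 and 7701 of 7964 CPM in replicate 3. The alpha cell sum had it too, with Gcg, the glucagon gene, at 395, 7543 and 65.1 CPM. The insulin genes and the delta cell (50.7, 1635 and 92.0 CPM), endothelial and acinar sums were likewise highest in replicate 2 but lowest in replicate 1. The same held for the duct and Schwann cell sums. The stellate cell sum was 19.5, 84.7 and 19.4 CPM. By contrast, the macrophage (389, 333 and 494 CPM) and T lymphocyte (3.05, 1.81 and 8.63 CPM) sums were lowest in replicate 2 and highest in replicate 3. The B lymphocyte and plasma cell sum was lowest in replicate 1 (14.2 CPM) and highest in replicate 3 (21.3 CPM). The part of these markers in the order of the 40 genes was not tested. Among the 16 members not called in inflamed against control, particle replicate 2 was highest in 7 and lowest in 6. Replicate 3 was highest in 4 of them and lowest in 8. The order was not counted over all genes, so it cannot be called particular to these members.

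Set against control islets, particle islets had 6 of the 40 genes called. Of these, 5 fell (Hyou1, Pdia6, Ero1b, Atp2a2 and Atp2a3) and 1 rose (Ero1a), where 5.92% of all genes fell and 11.4% rose, and the median log2 fold change was -0.45 against 0.05 over all genes. The groups did not overlap for 16 members lower and 4 higher, against 20.6% and 22.9% of all genes. Of all genes called, 65.7% were higher in particle islets, a share that became 84.2% with library totals and 42.7% with limma on log2(FPKM + 1). Atp2a2 fell 2.68-fold (-1.42, SE 0.28, adjusted p = 0.00668) and was called in all 20 alternative settings. Atp2a3 fell 3.35-fold (-1.74, SE 0.45, adjusted p = 0.0247), losing its call without particle replicate 1 or control replicate 2 or 3. Ero1a rose 2.02-fold (1.02, SE 0.28, adjusted p = 0.0296), losing its call without particle replicate 1 or 3 or control replicate 1 or 2.

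Ero1b was 3.08-fold lower in particle than in control islets (-1.62, SE 0.50, adjusted p = 0.0468), Hyou1 2.20-fold lower (-1.13, SE 0.35, adjusted p = 0.0462) and Pdia6 1.88-fold lower (-0.91, SE 0.27, adjusted p = 0.0391). Each of these calls was lost without particle replicate 1 or 3, inflamed replicate 1 or 2, or control replicate 2 or 3, and that of Ero1b also without inflamed replicate 3 or control replicate 1. Without particle replicate 2 the value of Ero1b was -2.46. Of all 6 calls, 3 were lost with only the compared libraries and 2 with library totals. A replicate block lost 1 of them, and no count filter lost 1. The count of 6 calls became 1 without particle replicate 1 or control replicate 2, 2 without particle replicate 3 or control replicate 3, 3 without inflamed replicate 1 or 2, and 16 without particle replicate 2, while the number of all genes called ran from 1115 to 4545 when 1 library was left out. The 2 comparisons with control islets share their control libraries, and the difference between them is the comparison of particle with inflamed islets given above.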

How the data were processed

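The deposited table of counts holds whole reads per gene, made with HTSeq on mouse build GRCm39, per the submitters' processing notes, which also name DESeq2; neither versions nor the strand setting are given in the sources used. The authors' deposited FPKM values follow from those counts and the gene lengths with a single scaling constant for each library, 0.860 to 1.19 times its total. Control columns were matched to the control samples by elimination and number.

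The test was that of edgeR 4.0.16, run in R 4.3.3 (filterByExpr with a smallest count of 10, TMM factors, robust quasi-likelihood fit of all 9 libraries, Benjamini-Hochberg adjustment over 17276 genes, called at an adjusted p under 0.05). A log2 fold change is the fitted value, its SE is that value over the root of F. CPM uses TMM-scaled totals.

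Members and lists were chosen with earlier results of these data known. Values in each library are given for all sensors and Xbp1, all members of groups of 3 or fewer, the 3 smallest p of each other role group in inflamed against control, the 3 smallest p in particle against inflamed, and Hspa5 (23 genes); 2 genes are named per pathway list. Other genes were named after their values were seen.

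Alternatives were other scalings (RLE, library totals, totals without the 20 most abundant and mitochondrial genes), no filter or a stricter one (1 CPM in 3 libraries), DESeq2 1.42.0, limma-voom (limma 3.58.1), only the compared libraries, a replicate block, leaving out each library, and limma on FPKM in log2 form with a pseudocount of 1 or 0.1. The procedure was tested on simulated counts. Chi-square per degree of freedom between replicates was 39.4 to 186, so counting error was small beside the replicate spread and all libraries were kept.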

Additional observations from a re-analysis of the deposited data

How the results depend on the processing

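In inflamed against control, 14 of the 24 calls held in all 20 alternatives (Hyou1, Creld2, Pdia4, Pdia6, Ero1b, Atf6b, Xbp1, Edem1, Edem2, Derl2, Atp2a2, Atp2a3, Sec61a1 and Sec61b), and the number of members called ran from 18 to 29, from 18 to 27 when 1 library was left out. The number of all genes called was 6842 in the main test. It ran from 4679 to 7711, from 4679 to 7314 when 1 library was left out. Without TMM factors the median of all genes was 0.22 in inflamed and 0.32 in particle against control, and relative to the median of all genes the members' median was -0.74 and -0.50, against -0.73 and -0.50 with TMM factors. In particle against control, 6 members were called, 16 with DESeq2, 11 with limma-voom and with either FPKM scale, 3 with only the compared libraries and 1 to 16 when 1 library was left out, over which the number of genes called ran from 1115 to 4545. Of all 17276 tested genes, 2983 were called in the main test, 4285 with DESeq2 and 3141 with limma-voom. The FPKM scales called 3522 (log2(FPKM + 1)) and 3293 (log2(FPKM + 0.1)), and only the compared libraries 2749 of 16237. Of all genes called there, 54.7% were higher with DESeq2, 52.2% with limma-voom and 50.3% with log2(FPKM + 0.1). In particle against inflamed, 0 genes were called, 1 with library totals, 221 with no filter, 783 with DESeq2, 15 with limma-voom, 16 with log2(FPKM + 1), 14 with log2(FPKM + 0.1) and 0 to 942 when 1 library was left out (942 without particle replicate 3), with 0 to 3 members. DESeq2 called 2 members. Some members uncalled in the main test were called in some alternatives. In inflamed against control there were 6 (Manf, Pdia3, P4hb, Syvn1, Derl3 and Os9), and all but Derl3 had every inflamed library below every control library. In particle against control there were 13 (Hsp90b1, Sdf2l1, Manf, P4hb, Atf6b, Eif2ak3, Xbp1, Syvn1, Edem2, Derl2, Derl3, Os9 and Sec61b). The cause of these changes was not tested.

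After each group's mean was removed, the correlation of same-numbered libraries ran from -0.18 to 0.21, over 0.1 in 1 of 9 pairs. With 3 libraries per group this cannot show whether the replicate numbers pair the libraries. With a replicate block, 23 members and 6116 genes were called in inflamed against control, 0 and 0 in particle against inflamed, and 6 and 2598 in particle against control. Relative to the main test, 2 member calls were lost and 1 gained in inflamed against control, and 1 lost and 1 gained in particle against control.

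Genes whose fold change changed sign had values near 0 and were uncalled. In inflamed against control these were Dnajb9 (-0.00054 with RLE factors, -0.010 with no filter, -0.00054 with DESeq2), Herpud1 (-0.020 with RLE factors, -0.020 with DESeq2, -0.015 with only the compared libraries, -0.018 with either FPKM scale, -0.0074 without abundant genes, -0.033 with no filter) and Hspa5 (0.18 with library totals, 0.0091 with the stricter filter, 0.0010 with limma-voom). With library totals Erp44 (0.12) and Ern1 (0.086) turned too. In particle against inflamed they were Dnajb9 (-0.0023 with RLE factors and with DESeq2, -0.022 with limma-voom, -0.034 and -0.035 on the FPKM scales), with library totals Hspa5 (0.065), Ern1 (0.041), Derl1 (0.088) and Os9 (0.0066), Derl1 without abundant genes (0.0016), and Ero1a (-0.0012 and -0.0032 on the FPKM scales). In particle against control they were Dnajb9 (-0.0029 with RLE factors, -0.0028 with DESeq2), with library totals Hspa5 (0.25), Canx (0.27), Erp44 (0.26) and Ern1 (0.13), and with only the compared libraries Canx (0.0056) and Erp44 (0.0023).

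Leaving out 1 library turned the sign of further uncalled values. Inflamed against control, Herpud1 ran from -0.13 to 0.072, Erp44 from -0.20 to 0.020, Dnajb9 from -0.20 to 0.26, Sel1l from -0.069 to 0.29, Hspa5 from -0.084 to 0.020 and Ern1 from -0.45 to 0.040. Particle against inflamed, Ero1a ran from -0.19 to 0.26, Erp44 from -0.037 to 0.11, Os9 from -0.42 to 0.14, Hspa5 from -0.076 to 0.047, Sdf2l1 from -0.45 to 0.46, Manf from -0.19 to 0.26, Prdx4 from -0.21 to 0.66, Atf6b from -0.042 to 0.76, Ern1 from -0.31 to 0.30, Sel1l from -0.25 to 0.14, Derl1 from -0.093 to 0.13, Dnajb9 from -0.26 to 0.14, Syvn1 from -0.28 to 0.093 and Atf6 from -0.26 to 0.025. Particle against control, Canx ran from -0.085 to 0.021, Dnajb9 from -0.21 to 0.27, Erp44 from -0.15 to 0.039 and Sel1l from -0.022 to 0.17. Derl3 and Prdx4, the least abundant members, are those whose precision depth limits most.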

Other observations

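Receptors that mark ER for autophagy were a further list of the pathway, and 3 of 7 tested members rose and 1 fell in inflamed against control islets, where 20.7% of all genes rose and 19.0% fell. Retreg1, also called FAM134B, a receptor that curves and fragments ER sheets, had 35.4, 27.7 and 62.8 CPM in particle islets, 48.5, 47.9 and 52.2 CPM in inflamed islets and 8.05, 7.31 and 7.10 CPM in control islets. Every cytokine-exposed library was above every control library. Its log2 fold change was 2.73 in inflamed against control (SE 0.29, adjusted p = 7.31e-05) and 2.49 in particle against control (adjusted p = 0.000178, edgeR). Its relative Retreg3 averaged 166 ± 22.9 CPM in particle islets, 221 ± 33.1 CPM in inflamed islets and 109 ± 5.01 CPM in control islets (SD, n = 3 each), a log2 fold change of 1.01 in inflamed against control (adjusted p = 0.00226). Tex264 rose as well (0.81, adjusted p = 0.0318), and Calcoco1 fell (-1.02, adjusted p = 0.0196).

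Of 13 other tested genes of ER calcium, 3 fell (23.1%, near the 19.0% of all genes) and 1 rose (7.7%, against 20.7%). Itpr2, a calcium release channel, had 3.79, 5.55 and 2.48 CPM in particle islets, 3.72, 6.14 and 2.34 CPM in inflamed islets and 15.9, 22.1 and 15.7 CPM in control islets. Its control libraries were above all others (-2.15 in inflamed against control, adjusted p = 0.00217). The store sensor Stim1 (-1.36, adjusted p = 0.00466) and the release channel Itpr1 (-1.27, adjusted p = 0.0259) were the other two that fell. Atp2a1, encoding the muscle pump SERCA1, had 1.82, 0.884 and 3.66 CPM in particle islets, 3.44, 5.64 and 1.99 CPM in inflamed islets and 0.330, 0.0920 and 0.215 CPM in control islets (4.07 in inflamed against control, adjusted p = 0.00172). Atp2a1 overlaps Rabep2 on the opposite strand, so its counts are uncertain. Stim1, Itpr1, Tex264 and Calcoco1 were named after their values were seen.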
